A study of Mus musculus with 384 samples.

Results

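This account follows 37 genes of the immediate early response and the heat shock response, out of 49585 genes counted, through single cells sorted from the mouse mammary gland. The genes were taken by name: 9 members or partners of the AP-1 family, 8 other early transcription factors, 11 feedback and other early response genes, and 9 heat shock genes. They were read in every single-cell well with at least 50000 reads on genes, which kept 347 wells, and in wells of 50 cells. The study compared progenitors of the embryonic mammary gland with the basal and luminal cells of the adult gland. Embryonic cells came from the skin, with its mammary buds, of female embryos at day 14 carrying Lgr5-EGFP-IRES-CreER, a construct that puts a fluorescent protein and an inducible recombinase under control of the stem cell gene Lgr5, and were sorted as CD49f Hi/Lgr5 Hi. Adult cells came from glands whose source is given as Rosa-tdTomato, and were sorted as CD24+CD29Hi (basal) or CD24+CD29Lo (luminal). The labels name no treatment, recombinase, adult age or animal for any well. In all 3 gates, cells carrying CD45, CD31 or CD140a and cells that took up the dye DAPI were excluded.

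Immediate early genes are transcribed within minutes of a stimulus, from factors already in the cell, and many of their short-lived messenger RNAs encode transcription factors such as Fos, Jun and Egr1 or proteins that switch the signal off again. Heat shock genes encode chaperones that keep proteins folded, and their stress-inducible members are driven by the heat shock factor Hsf1. Both groups are known to respond to the enzymes, warmth and shear by which solid tissue is made into single cells. The preparations differed here. Embryonic skin was digested for 90 minutes, and adult gland was digested for 120 minutes, broken up by pipette at intervals and then given trypsin for 1 minute. Gate, age, mouse line and dissociation therefore cannot be told apart in any difference between embryonic and adult cells given here.

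The control regions of these genes carry known response elements, and some are printed here to show where matches to the cAMP response element and to the heat shock element lie in members described below. Of the 37 genes, 29 matched the RefSeq promoter table (build GRCm38.p6), 22 early and 7 heat shock genes. Fosl1, Egr1, Egr3, Myc, Ier2, Nfkbiz, Hspa8 and Hsp90aa1 were not matched. Each printed stretch lies upstream of the start site, runs 5′ to 3′ on the gene's strand, and is in lower case with the matched motif letters in capitals. In Fos (chr12:85473740-85473889, plus strand) the capitals mark the core of the cAMP response element, TGACGT, and a TATAAA box. In Dusp1 (chr17:26508523-26508672, minus strand) and Btg2 (chr1:134079206-134079355, minus strand) they mark the same core, which in its palindromic form reads TGACGTCA. In Egr2 (chr10:67537719-67537838, plus strand) they mark a CArG box, the element bound by serum response factor, and the core on the opposite strand.
Fos: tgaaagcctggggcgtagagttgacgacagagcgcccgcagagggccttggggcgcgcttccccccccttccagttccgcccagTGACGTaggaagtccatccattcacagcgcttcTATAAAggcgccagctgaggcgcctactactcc
Dusp1: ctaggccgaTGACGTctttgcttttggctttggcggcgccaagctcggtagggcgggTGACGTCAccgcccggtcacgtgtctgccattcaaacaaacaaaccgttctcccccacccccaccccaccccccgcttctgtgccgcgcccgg
Btg2: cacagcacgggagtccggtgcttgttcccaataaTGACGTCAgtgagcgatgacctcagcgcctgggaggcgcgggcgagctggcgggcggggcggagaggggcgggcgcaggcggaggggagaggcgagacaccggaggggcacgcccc
Egr2: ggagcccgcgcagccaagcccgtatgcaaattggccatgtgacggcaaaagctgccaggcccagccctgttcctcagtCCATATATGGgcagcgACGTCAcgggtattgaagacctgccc

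The heat shock members Hspa1a (chr17:34972157-34972306, minus strand), Hspa1b (chr17:34959239-34959388, minus strand), Hspb1 (chr5:135887769-135887918, plus strand) and Hspe1 (chr1:55088053-55088082, plus strand) are shown with inverted pairs of the heat shock unit, GAANNTTC, in capitals. In Hspe1 the capitals also cover the other order of the pair, TTCNNGAA. The Hspe1 stretch lies inside the first annotated exon of Hspd1, which runs on the opposite strand and overlaps the start of Hspe1. The Hspa1a and Hspa1b stretches differ at 1 of 150 bases. None of the other printed stretches overlaps an annotated exon.
Hspa1a: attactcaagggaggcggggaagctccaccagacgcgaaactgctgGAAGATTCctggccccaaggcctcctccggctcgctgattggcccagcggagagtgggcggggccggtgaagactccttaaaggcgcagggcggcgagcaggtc
Hspa1b: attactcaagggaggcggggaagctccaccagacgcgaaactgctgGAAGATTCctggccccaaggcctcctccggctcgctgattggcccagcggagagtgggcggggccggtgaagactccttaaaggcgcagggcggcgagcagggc
Hspb1: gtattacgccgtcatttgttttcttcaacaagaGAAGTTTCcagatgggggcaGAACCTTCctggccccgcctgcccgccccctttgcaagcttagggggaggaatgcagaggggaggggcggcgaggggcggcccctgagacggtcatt
Hspe1: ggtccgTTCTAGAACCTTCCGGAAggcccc

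Motifs were searched on both strands of the 250 bases before the start of 27025 genes. TGACGT occurred in Fos, Atf3, Maff, Egr2, Dusp1 and Btg2, 6 of 22 early genes and 0 of 7 heat shock genes, against 7.29% of all genes. Its palindrome TGACGTCA, which contains that core, occurred in Maff, Dusp1 and Btg2 (1.77% of all genes). GAANNTTC occurred in 5 of 7 heat shock genes (Hspa1a, Hspa1b, Hspb1, Hspe1, Hspd1) and in 2 of 22 early genes (Fosl2, Jun), against 7.73% of all genes. The opposite order TTCNNGAA was found in Hsph1, Hspe1, Hspd1 and Egr2 (8.11% of all genes). The heat shock element of 3 units, which holds both orders in 1 run, was found in Hspe1 and Hspd1 (0.514% of all genes), whose searched regions overlap. A CArG box was found in Egr2 and Zfp36 (1.62% of all genes), TATAAA in Fos and Gadd45b (14.3%), and the AP-1 site TGANTCA in none of the 29 members (7.82%). These are letter matches and not measured binding sites.

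The data were read counts from full-length libraries of 1 plate with 384 wells. After 10 embryonic, 10 basal and 9 luminal wells with fewer reads were left out, the embryonic, basal and luminal wells had medians of 697578, 450196 and 525176 reads on genes (range over all of them 52500 to 1836609) and of 5515, 2798 and 3643 genes with a read. Each gate also had 1 well of 50 cells, with 532820 to 621792 reads. The 4 wells without a cell held 34 to 563 gene reads, of which at most 1 fell on an early gene and at most 2 on a heat shock gene. By rank correlation, 99.2% of embryonic, 90.7% of basal (98 cells) and 97.3% of luminal cells matched the 50-cell well of their own gate best. Of the other 10 basal cells, 8 matched the luminal well. Summed basal markers stood at 16711 CPM (counts scaled to the gene reads of the gate) in the basal gate, luminal markers at 16939 CPM in the luminal gate and embryonic bud markers at 2999 CPM in the embryonic gate, each the highest of the gates. Fibroblast markers summed to 3923, 2516 and 75.8 CPM (embryonic, basal, luminal), endothelial markers to 23.9, 456 and 10.4 CPM, and of 8 immune markers none reached 5 CPM in any gate. The endothelial markers Emcn and Tie1 were at 0 in the embryonic gate and Kdr, Emcn and Egfl7 in the luminal gate. The gates lay in blocks of plate rows. Because no label tells animals or litters apart, each gate is 1 sample. No test between gates was made, and all intervals are exact 95% intervals for counting error only, since reads copied by PCR are not independent molecules.

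The 28 early genes together took far more of the RNA of adult cells than of embryonic cells. Their sum in a cell was 247 CPM at the lowest, 2893 CPM at the median and 11404 CPM at the highest in the embryonic gate, 102.8, 16333 and 57270 CPM in the basal gate, and 2101, 18729 and 71667 CPM in the luminal gate. No embryonic cell reached the median of either adult gate, although the ranges overlapped. The 9 heat shock genes showed no such gap, with sums of 0, 2035 and 8182 CPM in embryonic, 16.9, 1797 and 8209 CPM in basal, and 6.49, 2625 and 6365 CPM in luminal cells. With every cell thinned to 50000 reads and 5 reads (100 CPM) taken as detection, a cell showed a median of 7 early genes in the embryonic, 13 in the basal and 16 in the luminal gate, and 3 heat shock genes in each gate. With only the cells that matched their own gate, the early medians were 2888, 16856 and 18793 CPM.

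**Figure D1:**
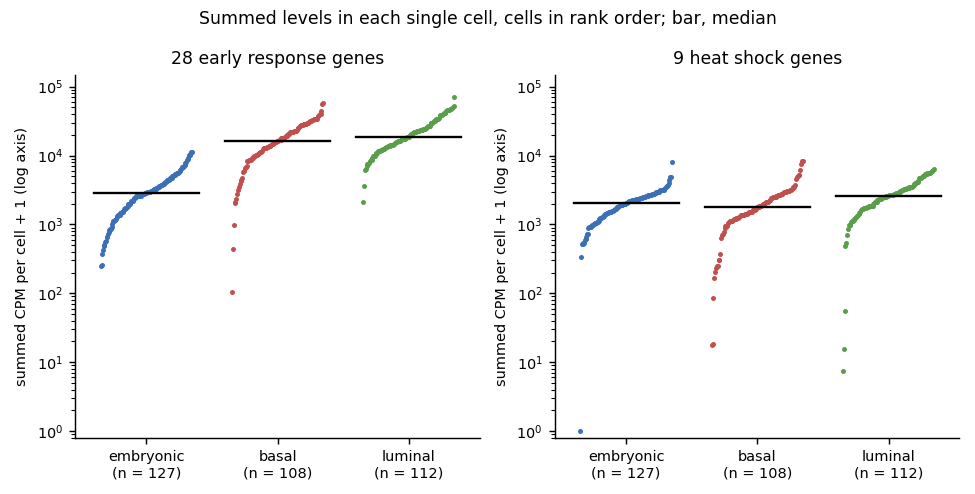
Summed CPM of the 28 early response genes (left) and of the 9 heat shock genes (right) in each kept cell, by gate, with the vertical scale as labelled on the axis and the median as a bar. The early sums have medians of 2893, 16333 and 18729 CPM in embryonic, basal and luminal cells, while the heat shock sums have medians of 2035, 1797 and 2625 CPM.

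Within a gate, the early sum spanned a wide range. The 90th percentile cell held 8.06 times the sum of the 10th percentile cell in the embryonic gate, 7.70 times in the basal gate and 4.599 times in the luminal gate. Over plate rows with at least 8 cells, the row medians ran from 2395 to 5206 CPM in embryonic, 12997 to 20212 CPM in basal and 16438 to 22121 CPM in luminal cells, and no row of embryonic cells came near a row of adult cells. The early sum had a Spearman rho with the cell's gene reads of 0.228, -0.118 and 0.0364 (embryonic, basal, luminal), with its thinned number of genes of 0.327, -0.167 and -0.104, and with its mitochondrial share of -0.144, -0.0823 and 0.00371. Early and heat shock sums had a rho of 0.410 over embryonic, 0.236 over basal and 0.152 over luminal cells. These coefficients are descriptions of cells that share a library and a total.

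By summed CPM, Fos and Egr1 were the strongest members of the basal gate, and Klf6, Egr1 and Fos those of the luminal gate. Set per kilobase of annotated exon, so that genes can be compared, Fos stood at 1898 CPM per kb in basal, 1099 in luminal and 195 in embryonic cells, and Egr1 at 878, 663 and 196. In luminal cells Ier3 (1104 CPM per kb) and Klf6 (965) were in the range of Fos. In embryonic cells the chaperone Hsp90aa1 (227 CPM per kb) and the inhibitor Nfkbia (214) exceeded both Fos and Egr1. Over the 37 genes, the luminal gate held the highest summed level of 23, the basal gate of 11 and the embryonic gate of 3. The embryonic gate held the lowest level of 30. In every gate, each member was at 0 in at least 1 cell, except Klf6 in luminal cells (lowest 12.97 CPM), so the cells of the gates overlapped for every member.

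**Figure D2:**
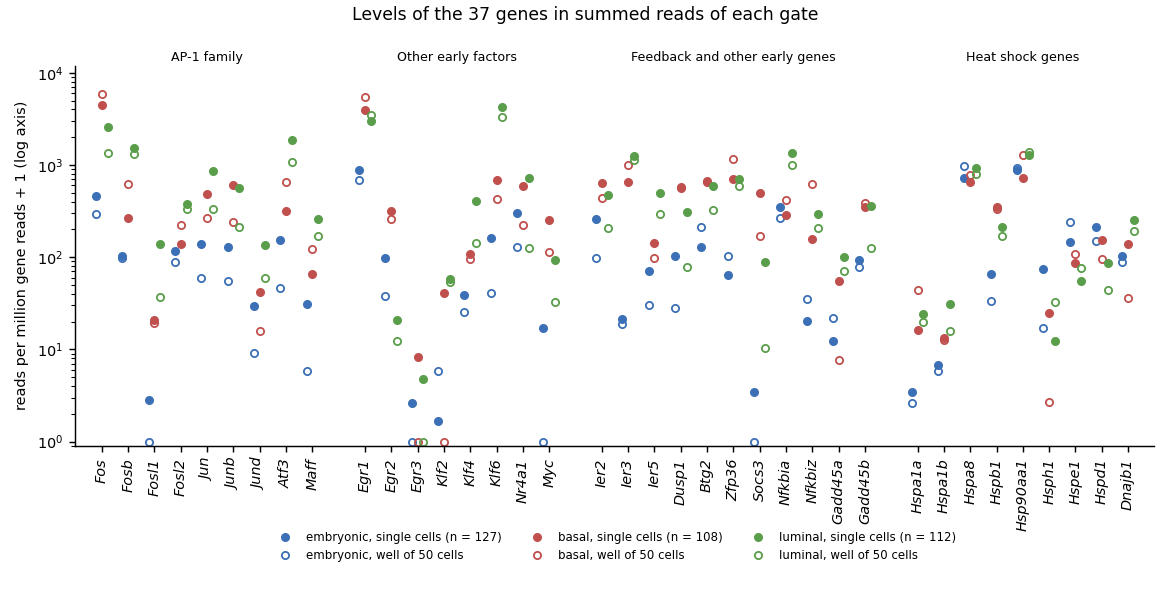
Level of each of the 37 genes in the 3 gates on a log axis of CPM, by role, with summed single cells and the 50-cell wells marked as in the legend. The embryonic level is the lowest of the gates for 30 of the 37 genes, and Hsph1, Hspe1 and Hspd1 are the genes with the highest summed level in embryonic cells.

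Between embryonic and basal cells all 37 genes were measured (5 CPM or more in either gate). Of these, 26 were at least 2-fold lower in embryonic cells (19.4% of all 12808 genes measured were) and 1 at least 2-fold higher (33.8% of all genes), counted on log2 ratios with 1 CPM added. The median log2 ratio of embryonic to basal cells was -1.69 over the members and 0.38 over all genes. All 24 early genes past 2-fold were lower in embryonic cells, 24 of 28 (median -1.99), and of the 9 heat shock genes 2 were lower and 1 higher (median 0.16). With spike-in reads in place of gene reads as the total, 12 of 36 members were lower and 7 higher, against 8.08% and 70.96% of all genes, and the median of all genes moved to 1.76. The spike-in share of a well had a median of 3.74% in embryonic and 8.48% in basal cells. Without cells showing 3 or more fibroblast, endothelial or immune markers, 23 members were at least 2-fold lower.

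Against luminal cells 36 genes were measured. In embryonic cells 29 were at least 2-fold lower (17.6% of 12679 genes) and 4 higher (39.3%), with a median log2 ratio of -2.21 against 0.58 over all genes. Of 27 early genes, 25 were lower and 1, Egr2, higher. Of 9 heat shock genes, 4 were lower and 3 higher. With spike-in reads as the total, 53.2% of all genes were higher and 12.8% lower, and 27 to 31 members were lower under each alternative tried. Both comparisons use the same embryonic cells.

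With gene reads as the total, fewer members were 2-fold apart between basal and luminal cells than in either embryonic comparison. All 37 genes were measured, and 4 were at least 2-fold higher in basal cells (28.3% of 11885 genes) and 11 lower (21.3%), with a median log2 ratio of -0.53 against 0.14 over all genes. The members thus had a smaller share on the higher side than all genes, while their excess on the lower side rests on few genes. The lower ones were 6 of 9 AP-1 genes (Fosb, Fosl1, Fosl2, Jund, Atf3, Maff), Klf4, Klf6, Ier5, Nfkbia and Hspa1b, and the higher ones were Egr2, Myc, Socs3 and Hsph1. In the 50-cell wells the counts were 11 higher (40.8% of all genes there) and 9 lower (27.01%) of 36. In plate row F, with 8 basal and 15 luminal cells, 16 of 36 members were lower (45.35% of all genes) and 4 higher (27.95%). The larger share of members on the lower side was thus not seen in the 50-cell wells or in that row. With TMM scaling it was seen, with 15 of 37 lower (24.27%). In a pooled well of 50 cells, fewer cells with a transcript and less of it per cell cannot be told apart. With spike-in reads as the total, 2 members were higher and 21 lower in basal cells, against 15.3% and 41.9% of all genes.

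AP-1 is a pair of proteins, often a Fos or Atf member with a Jun member, that binds DNA as a dimer. Fos (chr12:85473890-85477273, plus strand) had a median of 231 CPM and a highest cell of 1672 CPM in the embryonic gate, 4019 and 15200 CPM in the basal gate, and 850 and 27733 CPM in the luminal gate. Its summed level was 459 CPM (interval 455 to 464) in embryonic, 4463 CPM (4445 to 4481) in basal and 2585 CPM (2573 to 2597) in luminal cells, so that basal cells stood 9.72-fold (9.62 to 9.82) and luminal cells 5.63-fold (5.57 to 5.69) above embryonic ones. It was detected in 60.6% of embryonic, 89.8% of basal and 73.2% of luminal cells. The 50-cell wells gave 293, 5824 and 1336 CPM in the same order of gates. Basal and luminal sums differed 1.73-fold, while their single-cell medians lay further apart, and 12 luminal cells held 59.4% of all luminal Fos reads.

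The other Fos genes, partners of the same dimer, were mostly luminal. Fosb had medians of 17.8, 62.8 and 838 CPM (embryonic, basal, luminal), highest cells of 1462, 2086 and 10378 CPM, and summed levels of 103.3, 265 and 1515 CPM, so luminal cells were 14.7-fold above embryonic and 5.71-fold above basal cells. Fosl1, which encodes Fra-1, summed to 1.82, 19.9 and 136.5 CPM, with medians of 0, 0 and 20.3 CPM. Its basal level came from 10 cells with a read in the thinned data, and it was 1.296 CPM in the 98 basal cells that matched the basal well, below the embryonic level. Fosl2, which encodes Fra-2, summed to 114.9, 140 and 374 CPM. Luminal cells were thus the highest for all 3, and embryonic and basal cells differed by less than 2-fold for Fosl2. In the 50-cell wells basal and luminal cells were less than 2-fold apart for Fosl1 (18.3 and 35.7 CPM) and Fosl2 (221 and 328 CPM). The embryonic well held 88.5 CPM of Fosl2, more than 2-fold below the basal well.

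Of the Jun genes, Jun and Junb were less than 2-fold apart between the adult gates, and Jund was not. Jun had medians of 39.8, 315 and 492 CPM and summed levels of 139, 482 and 852 CPM in embryonic, basal and luminal cells, with highest cells of 1196, 3068 and 4595 CPM. Junb had medians of 73.5, 465 and 377 CPM and summed levels of 127.5, 600 and 567 CPM, so that it was 4.70-fold higher in basal than embryonic cells while the adult gates differed 1.06-fold. Jund, which is known to be expressed more steadily than its relatives, had medians of 21.7, 18.5 and 113.7 CPM and summed to 28.7 CPM in embryonic and 41.4 CPM in basal cells, with luminal cells 3.21-fold above the basal ones. Jun overlaps the antisense gene Junos, Junb overlaps Prdx2 and Jund overlaps Gm11175 on the other strand, and no source used here gives the strand mode of the counting, so reads may be shared.

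Atf3, a stress-induced partner, had medians of 0, 0 and 949 CPM, highest cells of 1889, 4603 and 12856 CPM, and summed levels of 154, 315 and 1878 CPM. Luminal cells were 12.2-fold above embryonic and 5.97-fold above basal cells in these sums. The 50-cell wells held 45.03, 654.5 and 1077 CPM of Atf3. There the basal and luminal wells were less than 2-fold apart, and the embryonic well was far below both. In the basal gate 54.6% of cells had no Atf3 read at all, and its 2.05-fold difference from embryonic cells fell below 2-fold among cells matching their own gate. Maff, a small Maf protein without an activation domain, summed to 29.8, 65.1 and 260 CPM. Its difference of 2.18-fold between basal and embryonic cells was also under the threshold, with the prior of 1 CPM, among cells matching their own gate. In the 50-cell wells Maff stood at 4.825, 121.3 and 167 CPM, with the basal and luminal wells again less than 2-fold apart.

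Egr1, a zinc finger factor and a widely used marker of recent stimulation, was detected in more cells than Fos in every gate. It had a median of 617 CPM and a highest cell of 5294 CPM in the embryonic gate, 3733 and 33321 CPM in the basal gate, and 2186 and 15789 CPM in the luminal gate. Its summed levels were 877, 3939 and 2975 CPM, 4.49-fold (4.46 to 4.53) higher in basal and 3.39-fold (3.36 to 3.42) higher in luminal than in embryonic cells. Detection was 85.8% of embryonic, 96.3% of basal and 87.5% of luminal cells. Most embryonic cells thus had Egr1 reads, at a lower level than in the adult gates.

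Egr2 was, like Egr1, higher in basal than in luminal cells, and it was the 1 early gene lower in luminal than in embryonic cells. Its medians were 0, 48.7 and 0 CPM, its highest cells 1492, 2875 and 747 CPM and its summed levels 97.1, 316 and 20.03 CPM. Basal cells were 15.8-fold (14.9 to 16.7) and embryonic cells 4.85-fold (4.58 to 5.14) above luminal ones. A read was found in 16.1% of luminal cells after thinning, and 12 luminal cells held 94.9% of the luminal reads. In plate row F, which holds 8 basal and 15 luminal cells, Egr2 was under 2-fold apart. Egr3 stayed at 1.65, 7.32 and 3.79 CPM and was not read in any 50-cell well.

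Klf6, a zinc finger factor of the Krüppel-like family, was read in most luminal cells and in fewer cells of the other gates. Its medians were 31.05, 18.3 and 3206 CPM, its highest cells 1472, 11712 and 16093 CPM and its summed levels 162, 687 and 4238 CPM. It was detected in 92.9% of luminal (86.4% to 96.9%), 32.4% of basal and 35.4% of embryonic cells. Luminal cells were 26.1-fold above embryonic and 6.17-fold above basal cells. In the basal gate the 11 cells with the most reads held 81.9% of them (73.1% after thinning), and the 98 basal cells matching their own well had 241 CPM. Klf4 summed to 38.1, 107.2 and 404 CPM. Klf2, which is known for its strength in endothelium, summed to 0.656, 40.2 and 57.1 CPM, and 11 basal cells held 98.04% of its basal reads. The 50-cell wells had the other order, with 3 reads (4.82 CPM) in the embryonic and 0 in the basal well. Their intervals overlap (0.995 to 14.1 and 0 to 6.13 CPM), so these counts cannot order the gates. Endothelial markers were also highest in the basal gate, where 7 cells carried 3 or more of them at 5 reads before thinning, although the sort excluded CD31+ cells. Leaving out cells with 3 or more fibroblast, endothelial or immune markers at 5 reads after thinning kept 95 basal cells. Klf2 then summed to 0.125, 5.35 and 57.1 CPM, so that basal cells were over 2-fold below luminal cells.

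Nr4a1, an orphan nuclear receptor, summed to 299, 596 and 725 CPM, with medians of 75.7, 201 and 177 CPM and highest cells of 2221, 6942 and 6474 CPM. It was 1.99-fold higher in basal than in embryonic cells, just under the threshold. The difference passed 2-fold in 7 alternatives, among them TMM scaling, and stayed under it in the others. The 50-cell wells held 128.7, 223 and 123.9 CPM, so there the luminal and embryonic wells were nearly level. Myc, the growth regulator, was highest in basal cells, with summed levels of 16.1, 250 and 93.1 CPM and medians of 0, 10.3 and 2.44 CPM. Basal cells stood 15.5-fold above embryonic and 2.69-fold above luminal cells for Myc.

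**Figure D3:**
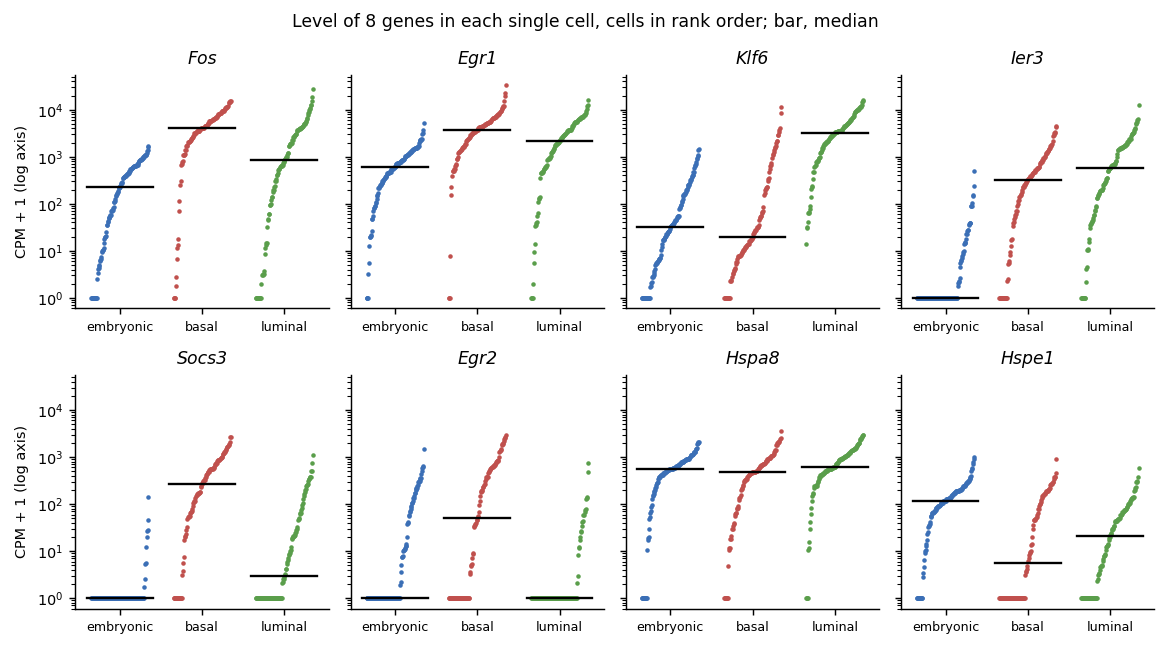
CPM in every kept cell for Fos, Egr1, Klf6, Ier3, Socs3, Egr2, Hspa8 and Hspe1, with the cells of each gate in rank order and a bar at the median. Klf6 has a median of 3206 CPM in luminal cells and 18.3 CPM in basal cells, Socs3 is at 0 in most embryonic cells, and Hspa8 has similar medians in all gates.

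Among the feedback genes, the largest differences were those of Socs3 and Ier3. Socs3, which blocks cytokine signalling through Stat3, had medians of 0, 273 and 1.95 CPM, highest cells of 140, 2683 and 1097 CPM, and summed levels of 2.46, 496 and 87.1 CPM. It was detected in 1 embryonic cell (0.787%, interval 0.0199% to 4.31%), 67.6% of basal and 18.8% of luminal cells, and the basal level was 202-fold (177 to 231) above the embryonic level. The 50-cell wells held 0, 169 and 9.38 CPM. Ier3, a regulator of cell survival, had medians of 0, 327 and 573 CPM and summed levels of 20.1, 652 and 1249 CPM. Its level was 32.4-fold higher in basal and 62.1-fold higher in luminal than in embryonic cells.

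Zfp36 encodes the RNA-binding protein that destroys short-lived messages. In the single-cell sums it was nearly the same in basal and luminal cells, at 703 and 709 CPM (1.01-fold, 0.995 to 1.02). It stood at 63.1 CPM in embryonic cells. Its medians were 402, 522 and 3.10 CPM in that order. The 50-cell wells differed, with 1158 CPM (1073 to 1247) in the basal and 595 CPM (531 to 664) in the luminal well. The embryonic well held 101.3 CPM. Dusp1, the phosphatase that inactivates MAP kinases, summed to 101.3, 566 and 307 CPM (embryonic, basal, luminal), and Btg2, an antiproliferative protein, to 126.4, 652 and 595 CPM. These carry the palindrome printed above, and in the single-cell sums both were over 3-fold higher in each adult gate than in embryonic cells. In the 50-cell wells Btg2 was less than 2-fold apart between the embryonic (211 CPM) and the luminal well (323 CPM). The basal well was over 2-fold above the luminal one for Btg2 (678 CPM in basal) and for Dusp1 (572 and 76.95 CPM). In rows F to K, with 16 embryonic cells, Dusp1 was less than 2-fold apart between embryonic and luminal cells. Dusp1 overlaps Ergic1 on the other strand.

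Nfkbia, which encodes the inhibitor of NF-kB, was the early gene with no basal excess over embryonic cells in the single-cell sums, whereas the 50-cell wells had 264 CPM in the embryonic and 412 CPM in the basal well. Its medians were 127.6, 84.5 and 958 CPM and its summed levels 345, 285 and 1348 CPM, so embryonic cells were 1.21-fold above basal cells and luminal cells 4.74-fold above basal cells. Nfkbiz, a nuclear relative, summed to 19.4, 156 and 292 CPM, but the basal well of 50 cells (620 CPM) was above the luminal one (208 CPM). Ier2 summed to 261, 640 and 469 CPM and Ier5 to 70.0, 143 and 501 CPM. The basal excess of Ier5 over embryonic cells, 2.04-fold, was under 2-fold in 5 of the alternatives besides the spike-in total. Gadd45b, a stress sensor, summed to 91.8, 346 and 357 CPM, and its relative Gadd45a to 11.4, 53.8 and 100 CPM. In the 50-cell wells Gadd45a was higher in the embryonic (20.9 CPM, 13 reads) than in the basal well (6.64 CPM, 4 reads), with overlapping intervals.

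Among the heat shock genes, Hspa8 (Hsc70, the constitutive Hsp70) and Hsp90aa1 (the stress-inducible Hsp90) had the highest summed levels in every gate. Hspa8 had medians of 551, 472 and 627 CPM, highest cells of 2046, 3586 and 2979 CPM, and summed levels of 724, 648 and 936 CPM. Hsp90aa1 had medians of 730, 507 and 1173 CPM and summed levels of 891, 728 and 1279 CPM. No pair of gates was 2-fold apart for either gene. Hspa8 holds small nucleolar RNA genes in its introns.

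The stress-inducible Hsp70 genes were low in every gate. Hspa1a summed to 2.42, 15.1 and 23.03 CPM and Hspa1b to 5.73, 12.3 and 29.9 CPM. Their messages share 58.8% and 62.3% of their 50-base words, so reads could be split between them or lost, and their values are uncertain. Neither was detected in more than 12.5% of the cells of any gate. Dnajb1, the inducible Hsp40 partner of Hsp70, was higher, at 102.5, 138 and 252 CPM, with medians of 3.83, 0 and 104.1 CPM, although the embryonic well of 50 cells (86.9 CPM) was above the basal one (34.9 CPM). Hspb1, the small chaperone Hsp27, whose upstream stretch holds 2 of the paired units, had medians of 5.02, 161 and 59.2 CPM and summed levels of 65.1, 349 and 214 CPM. Basal cells were 5.36-fold (5.21 to 5.52) and luminal cells 3.29-fold (3.19 to 3.39) above embryonic ones for Hspb1.

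The 3 genes that were highest in embryonic cells were all chaperones. Hspe1 and Hspd1 encode the mitochondrial chaperonin (Hsp10 and Hsp60) from neighbouring genes with a shared control region. Hspe1 had medians of 117.1, 4.51 and 20.02 CPM and summed levels of 147, 84.97 and 54.1 CPM, 1.73-fold above basal and 2.71-fold above luminal cells. It was detected in 59.8% of embryonic, 28.7% of basal and 20.5% of luminal cells. Hspd1 had medians of 108.9, 0 and 10.7 CPM and summed levels of 210, 152 and 85.2 CPM. With 2 other scalings of the gate sums both genes were less than 2-fold above luminal cells. Hspe1 and Hspd1 overlap on opposite strands at their first exons.

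Hsph1, a nucleotide exchange factor for Hsp70, summed to 73.8, 23.7 and 11.2 CPM, with medians of 1.80, 0 and 0 CPM. A total of 11 basal cells held 99.5% of the basal reads and 12 luminal cells 99.7% of the luminal reads. Its 2-fold call between basal and luminal cells was lost in 9 alternatives and had the opposite sign in 2 more. The 50-cell wells held 16.1, 1.66 and 31.9 CPM, from 10, 1 and 17 reads. The order of embryonic and luminal cells was the reverse there, with overlapping intervals. In plate row F the luminal level was likewise above the basal level.

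Genes of the same pathways outside the 37 were read from lists. Of 26 further early response genes measured between embryonic and basal cells, 16 were at least 2-fold lower in embryonic cells (19.4% of all genes) and 2 higher (33.8%), and of 25 measured against luminal cells, 21 were lower (17.6%) and 3 higher (39.3%). The matricellular gene Ccn1 stood at 149, 560 and 1485 CPM, the kinase gene Sgk1 at 19.2, 442 and 1399 CPM, and the EGF receptor inhibitor Errfi1 at 42.6, 1052 and 1176 CPM. The neutrophil chemokine Cxcl1 stood at 7.92, 230 and 1106 CPM and Cxcl2 at 1.36, 65.4 and 577 CPM. Ccn2 was a basal gene, at 2.01, 224 and 5.76 CPM. Most measured genes of this list, like most early members, were thus lower in embryonic than in adult cells. The 6 named were taken for a high level or a large fold and do not stand for the list. None of them was among its genes higher in embryonic cells.

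The inhibitors that MAP kinase signalling induces were split. Of 11 measured, 4 were lower (19.4% of all genes) and 3 higher (33.8%) in embryonic than in basal cells, and 3 were lower (17.6%) and 8 higher (39.3%) than in luminal cells. The 50-cell wells differed from this. The embryonic well was at least 2-fold below the basal one for 7 of 9 (30.5% of all genes there) and above it for 1 (37.6%). It was below the luminal one for 4 of 10 (22.2%) and above it for 5 (44.1%). Dusp6 stood at 86.9, 383 and 253 CPM, Dusp5 at 40.6, 125.9 and 520 CPM and Spry2 at 81.1, 185 and 233 CPM. Spred1 stood at 146, 355 and 45.4 CPM. Etv4, a target of FGF signalling, stood at 93.2 CPM in embryonic against 0.568 CPM in basal and 6.09 CPM in luminal cells.

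Of 17 genes that encode the upstream regulators, 1 was lower (19.4% of all genes) and 5 were higher (33.8%) in embryonic than in basal cells. Against luminal cells 4 were lower (17.6%) and 6 higher (39.3%). In the 50-cell wells the embryonic well was at least 2-fold lower than the basal one for 6 of 16 (30.55% of all genes there) and higher for 4 (37.61%). Stat3 was the one lower in both, at 88.6, 294 and 730 CPM. The NF-kB subunits Nfkb1 (105.7, 131.1 and 367 CPM) and Rela (85.7, 88.97 and 301 CPM) were highest in luminal cells, as was Nfkbia. Creb1, which encodes the factor of the cAMP response element, stood at 145, 99.8 and 34.1 CPM. Hsf2, a relative of Hsf1, was highest in embryonic cells (35.9, 7.66 and 9.42 CPM).

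Of 22 further chaperones and cochaperones, 2 were lower (19.4% of all genes) and 6 higher (33.8%) in embryonic than in basal cells, and 3 were lower (17.6%) and 5 higher (39.3%) than in luminal cells. Hsp90ab1, the constitutive Hsp90, stood at 3116, 1966 and 2774 CPM, and Fkbp4 at 329, 120.8 and 107.9 CPM. Bag3, a cochaperone induced by stress, stood at 31.9 CPM in embryonic and 109.6 CPM in basal cells and was 3.55-fold higher in luminal than in embryonic cells. The small chaperone Cryab, a myoepithelial gene, stood at 0.0667, 94.9 and 11.5 CPM. Of the genes of the endoplasmic reticulum, 5 of 12 were lower and 3 higher in embryonic than in basal cells, and 7 of 13 were lower and 2 higher than in luminal cells, against the same shares of all genes. Its main chaperone Hspa5 stood at 746, 1884 and 4497 CPM, although the 50-cell wells of embryonic and basal cells held 664 CPM each. Herpud1 stood at 13.4, 171 and 318 CPM and Ddit3 at 14.3, 80.1 and 84.1 CPM.

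How much a gene varied among the cells of a gate was set against all genes of like level, as the coefficient of variation (CV) of the thinned counts relative to its trend with the mean. Among the 35 members measured in the luminal gate, 7 lay in the top 10% of spread (9.99% of all genes): Fos (CV 1.60), Ier3, Fosb, Nr4a1, Egr1, Klf6 and Atf3. In the basal gate 2 of 32 did (10% of all genes), Klf6 (CV 2.76) and Egr1 (CV 1.01), and in the embryonic gate 3 of 27 did (9.99%), Klf4 (CV 6.43), Fosl2 and Dnajb1. The basal and embryonic counts are near those of all genes, and the basal count was 6 with cells of at least 200000 reads. In the embryonic gate 13 cells held 89.4% of the thinned Klf4 reads (81.6% before thinning). The highest cell had 3960 CPM, against a 90th percentile of 97.95 CPM and a median of 0. The embryonic CV of Klf4 thus depends largely on 1 cell.

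The spread differed among members, also within a role. Luminal Fos had a CV 2.33 times its trend, at percentile 99.1 of all genes, while basal Fos stood at percentile 84.2 and embryonic Fos at 40.6. Jund was at percentile 0.170, 0.407 and 0.534 in embryonic, basal and luminal cells, among the evenest genes of its level in each gate. Hspe1 was also even, at percentiles 3.58, 1.68 and 2.10. Hspa8 (33.1, 19.5 and 27.2) and Hsp90aa1 (40.98, 69.6 and 9.69) lay mostly under the trend. In the luminal gate 21 of 35 members lay above the trend (48.9% of all genes), but only 2 of the 8 heat shock genes did. In the basal gate 3 of 6 heat shock genes and 11 of 26 early genes did (49.3% of all genes). In the embryonic gate 2 of 7 heat shock genes and 11 of 20 early genes did (49.4%).

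**Figure D4:**
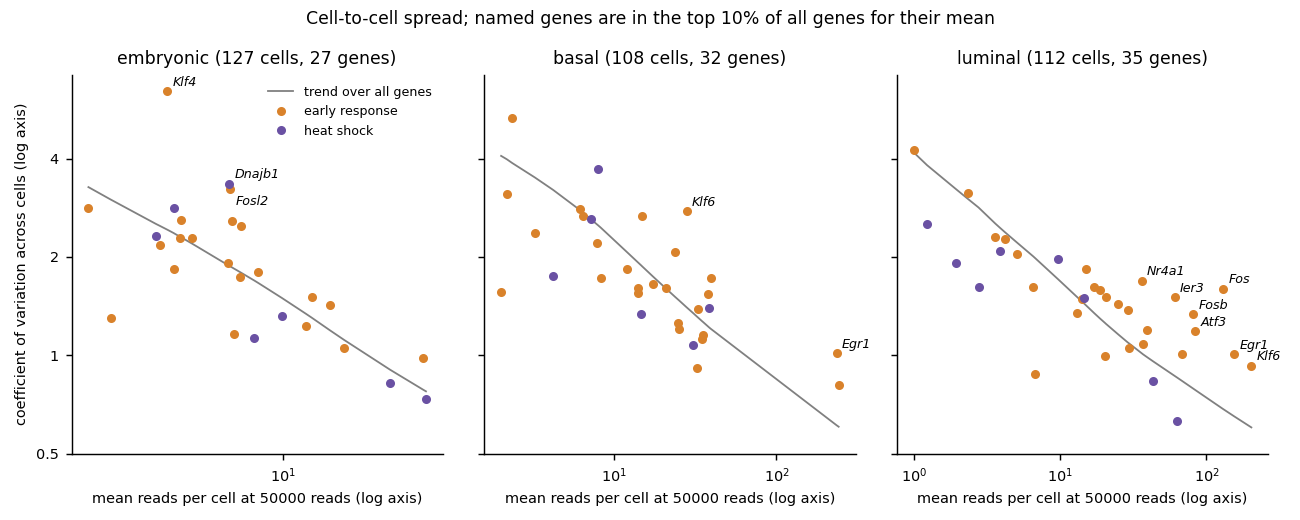
CV of thinned counts against the mean reads per cell, both on log axes, for the members measured in each gate, with the trend over all genes as a line. Luminal Fos has a CV of 1.60, which is 2.33 times its trend, and embryonic Klf4 a CV of 6.43, which is 2.65 times its trend. The Klf4 value depends largely on 1 cell with 3960 CPM. Jund lies below the trend in each gate, at 0.434, 0.384 and 0.444 times it in embryonic, basal and luminal cells.

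Early genes varied together from cell to cell. Among pairs of early members read in at least 20% of the cells, a Spearman rho of 0.3 or more was found in 41 of 190 pairs (21.6%) in embryonic cells, 52 of 300 (17.3%) in basal cells and 55 of 325 (16.9%) in luminal cells. Over all gene pairs the share was 0.419%, 0.959% and 1.5%. Fos and Egr1 had a rho of 0.433, 0.524 and 0.593 (embryonic, basal, luminal), Egr1 and Junb 0.403, 0.532 and 0.453, Fos and Zfp36 0.411, 0.399 and 0.467, and Nr4a1 and Egr1 0.427, 0.559 and 0.365. In total 13 of 300 pairs reached 0.3 in all gates, and they joined 8 genes: Fos, Fosb, Egr1, Junb, Zfp36, Nr4a1, Ier2 and Dusp1. These are transcription factors with their brakes, Zfp36 and Dusp1. The cells of a gate share a plate and the counts of a cell share a total, and low counts weaken a rho.

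Some early members stood outside that group. Klf6, the luminal member with the highest summed CPM, had a rho with Fos of 0.0119, -0.105 and -0.146. Maff went with Fos weakly in embryonic (0.224) and basal cells (0.112) and against it in luminal cells (-0.337), and its rho with Egr1 in luminal cells was -0.211. Of the pairs of heat shock genes, 1 of 21 reached 0.3 in embryonic cells (Hspb1 and Hspa8, 0.343) and 0 of 15 in basal cells. In luminal cells 1 of 28 did (Hspa8 and Hsp90aa1, 0.389). These shares, 4.76%, 0% and 3.57%, rest on few pairs and stand against 0.419%, 0.959% and 1.5% of all gene pairs. The median rho of the heat shock pairs was 0.129, 0.101 and 0.078, against 0.040, 0.051 and 0.047 over all gene pairs. Hspe1 and Hspd1, which share their control region, had a rho of 0.138, 0.195 and -0.0131. Pairs of an early and a heat shock gene reached 0.3 in 2 of 140, 2 of 150 and 9 of 208 cases (1.43%, 1.33% and 4.33%).

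**Figure D5:**
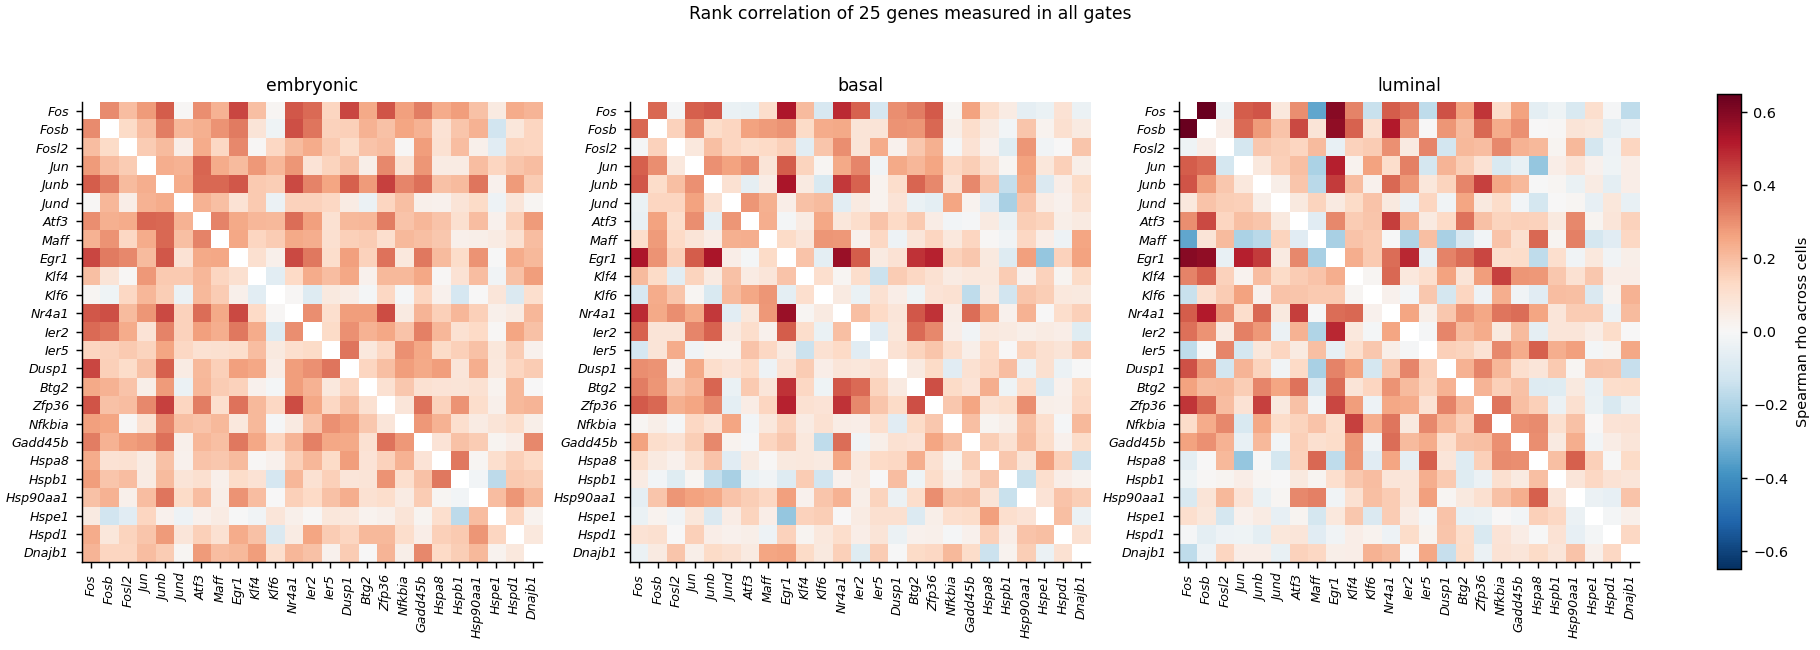
Spearman rho between members across the kept cells of each gate, for 25 genes read in at least 20% of the cells of all gates, with colour from negative to positive as in the scale bar. A block of positive pairs around Fos, Egr1, Junb and Zfp36 appears in every gate (Fos and Egr1 0.433, 0.524 and 0.593), while the heat shock genes form no block.

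Outside the 37, 2746 genes could be ranked by their mean rho with the early sum over the 3 gates, with a median of 0.00345 and a 95th percentile of 0.114. The genes most like it were Zfp36l1 (mean rho 0.348), Ppp1r15a (0.343), Neat1 (0.321), Sik1 (0.314), Slc38a2 (0.291), Cebpb (0.275), Tiparp (0.275), Sertad1 (0.263), H3f3b (0.260) and Mt1 (0.250). Of these 10, 3 were on the list of further early response genes, which held 12 of the 2746 genes ranked. Zfp36l1 is a relative of Zfp36, and Neat1 is a long noncoding RNA of the nucleus. The rho was positive in every gate for each of the 10, with the lowest at 0.0687 for Tiparp in luminal cells.

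Luminal cells hold a hormone-sensing and a secretory kind, and the members were compared between them. By which of the marker lists was higher, 49 cells were hormone-sensing-like and 63 secretory-like, with 2 cells within 1 of the threshold on the difference of the scores. Of 37 members, 3 were at least 2-fold higher in hormone-sensing-like cells (33.1% of 11011 genes) and 11 lower (20.4%), with a median log2 ratio of -0.55 against 0.34 over all genes. The hormone-sensing-like cells were deeper, with a median of 730826 gene reads and 4702 genes against 482621 reads and 3032 genes. Early sums had medians of 17445 and 21157 CPM, with lowest and highest cells of 2101 and 52192 CPM in hormone-sensing-like and 3571 and 71667 CPM in secretory-like cells, so the kinds overlapped widely.

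Individual members differed more than the sums. Ier3 stood at 264 CPM in hormone-sensing-like and 2223 CPM in secretory-like cells (8.43-fold, 8.25 to 8.62), with highest cells of 1624 and 12741 CPM. Socs3 went the other way, at 156 and 19.03 CPM (8.19-fold, 7.55 to 8.90), as did Jun, at 1340 and 368 CPM with medians of 976 and 230 CPM, and Klf2, at 89.3 and 25.3 CPM. Fosl2 (139 and 607 CPM), Klf4 (191 and 616 CPM), Gadd45b (170 and 542 CPM) and Nfkbia (766 and 1924 CPM) were higher in secretory-like cells. Among heat shock genes, Hspa8 was 2.35-fold higher in secretory-like cells, with medians of 505 and 1058 CPM, and the heat shock sum had medians of 2135 and 2977 CPM. Fos, Egr1 and Klf6 were less than 2-fold apart between the kinds. For Fos the sum (2296 and 2871 CPM) and the median (1218 and 604 CPM) pointed in opposite directions.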

How the data were processed

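Counts of reads per gene were deposited for 384 wells in 1 table, with 49585 genes and 92 ERCC spike-ins. Libraries were made from sorted wells with a modified Smart-seq2 chemistry of 24 PCR cycles followed by Nextera XT tagmentation, per the labels' protocols. The tools named in the submitters' processing notes are HTSeq 0.6.0, STAR 2.5.2b and cutadapt 1.13, and the genome build is GRCm38. The strand mode is not given in the sources used here. Symbols and gene coordinates came from GENCODE M21 (GRCm38), matched for 49326 identifiers and not for 259.

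Wells with at least 50000 gene reads were kept: 127 of 137 embryonic, 108 of 118 basal and 112 of 121 luminal wells. Levels (CPM) are reads summed over a gate and scaled to its gene reads. A prior of 1 CPM was added before log2 ratios, and a gene was measured at 5 CPM in either gate. Folds have exact conditional intervals, levels exact Poisson intervals and shares Clopper-Pearson intervals, all at 95%. Detection, spread and pairs used cells thinned to 50000 reads, with detection at 5 reads. Shares of reads held by 11, 12 or 13 cells refer to the tenth of a gate's cells with the most reads of that gene. They use reads before thinning unless stated, which favours deep wells, and are not counts of cells with the transcript. Spread was the CV against a lowess trend (fraction 0.3) over genes with a mean of at least 1 thinned read and a read in at least 5% of cells. No doublet caller was run. Python 3.11.15 with numpy 2.4.6, pandas 2.3.3, scipy 1.17.1 and statsmodels 0.14.6 was used, and edgeR 4.0.16 under R 4.3.3 gave TMM scaling factors only. The steps were tested on simulated data with known folds.

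The members and lists were chosen with earlier results of these data known. All 37 members could be named, with up to 4 measured genes of highest level and up to 3 of largest fold from each pathway list. The 10 genes with the highest mean rho with the early sum were named, without mitochondrial and ribosomal genes. Alternatives were other totals and scalings, filters on wells, levels and priors, thinning, the 50-cell wells, and subsets of plate rows. A well with conflicting gate labels entered no comparison.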

Additional observations from a re-analysis of the deposited data

Results flagged for a closer look

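A well titled as a luminal cell but labelled with the embryonic sort was left out of every comparison, and it held strong signal. Early genes made up 58645 CPM of its reads, 45395 of 774060 gene reads over 26 early genes with a read. Heat shock genes made up 5202 CPM, 4027 reads over 7 genes. Both lie far above the wells without a cell in reads, which held at most 1 early read and at most 2 heat shock reads. The well's rank correlation was highest with the luminal well of 50 cells. Its early sum lies within the range of luminal cells (2101 to 71667 CPM) and above the highest embryonic cell (11404 CPM) and the highest basal cell (57270 CPM).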

How the results depend on the processing

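No paired analysis was possible because the wells of the gates share no replicate numbers that mark a common source, and no test was made. Each gate is 1 sample, so leaving out a replicate could not be tried, and depth limits detection to transcripts of about 100 CPM in a thinned cell.

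With spike-in reads as the total, the count of members higher in embryonic than in basal cells changed from 1 to 7 and the count lower from 26 to 12, and between basal and luminal cells the counts changed from 4 to 2 higher and from 11 to 21 lower. The other alternatives gave 23 to 29 lower in embryonic than in basal cells. In the 50-cell wells 4 members were higher in embryonic than in basal cells and 11 higher in basal than in luminal cells, and in plate rows A to F 2 were higher in embryonic than in basal cells. With TMM or median-of-ratios scaling, 2 members in place of 4 were higher in embryonic than in luminal cells. TMM moved the split of all genes to 26.7% higher and 24.6% lower (embryonic against basal) and to 29.1% higher and 24.4% lower (embryonic against luminal). The cause of these changes was not tested.

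The count of members in the top 10% of spread changed from 3 to 5 in embryonic cells under a second random thinning. In basal cells it changed from 2 to 5 with at least 1500 genes and at most 20% mitochondrial reads, to 6 with at least 200000 reads and to 6 with cells thinned to 200000 reads. With 1 read as detection, 15 in place of 9 members were detected in at least 50% of embryonic cells.

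Over the single genes and alternatives, 61 of 1540 log2 ratios had another sign than the main value, 18 of them with either value past 2-fold. On the log2 scale, embryonic minus basal with the spike-in total gave Fosl2 1.05, Atf3 0.31, Maff 0.21, Ier2 0.047 and Ier5 0.31. The 50-cell wells gave Klf2 2.54, Gadd45a 1.52 and Dnajb1 1.29 (embryonic minus basal), Nr4a1 0.054 and Hsph1 -0.95 (embryonic minus luminal) and Nfkbiz 1.57, Gadd45b 1.62, Hspa1a 1.16 and Hsph1 -3.63 (basal minus luminal). The values of Klf2, Gadd45a and Hsph1 rest on 17 reads or fewer in each well compared. In those wells the sign changed for 5 of 37, 3 of 36 and 6 of 37 members in these comparisons, among them Nfkbia (-0.64) and Hsp90aa1 (-0.47) between embryonic and basal cells. Cells matching their own gate gave Fosl1 0.21 (embryonic minus basal), and plate row F gave Egr3 -2.18, Dusp1 -1.03 and Hsph1 -2.03 (basal minus luminal). Plate-row subsets, the exclusion of cells with markers of other cell types and the other divisions of luminal cells were chosen after seeing the data.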
